A study of Mus musculus with 6 samples.

Results

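Diacylglycerol kinases (DGKs) were read across the forebrain libraries as the 9 genes Dgka, Dgkb, Dgkd, Dgke, Dgkg, Dgkh, Dgki, Dgkq and Dgkz, found by gene symbol among the 23282 entries of the count tables. These enzymes phosphorylate diacylglycerol, the membrane lipid second messenger released by phospholipase C, to phosphatidic acid. They thereby end signalling through protein kinase C, RasGRP, chimaerins and Munc13 and feed phosphatidic acid back into phosphatidylinositol synthesis, and several of them are concentrated at synapses of the brain. Mammalian DGKs fall into 5 types by their regulatory domains, and each type was represented among the 9 genes. The genes were chosen with results of the WAS comparison already known, in particular those of Dgkg, so their differences between groups are given as a description, with no p-value, and how many of them pass a threshold is not evidence of a difference.

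The libraries came from forebrain of male C57BL/6J mice aged 8 to 10 weeks, with the olfactory bulbs and cerebellum removed and the hemispheres divided between RNA-Seq and metabolomics. Each group had 3 libraries, labelled as biological replicates. Mice of the water avoidance stress (WAS) group stood for 1 h on a small platform surrounded by water, and control mice stood for 1 h on the same platform in a dry container, and all were killed directly afterwards. Expression was read by QuantSeq 3′ mRNA-Seq, which sequences the end of the transcript next to the poly(A) tail. Levels are given as CPM, the count of a gene scaled to a common library total.

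Groups follow the sample labels. The count column was headed WC in the tables labelled WAS and WS in the tables labelled control, and the sources do not define these headings. Every direction below would turn around if the groups were exchanged, so the text speaks of libraries labelled WAS or control. Library totals ran from 9248520 to 10502029 counts. Regional marker genes set WAS replicates 1 and 3 apart from the other 4 libraries. The summed level of 8 thalamic markers was 475, 109 and 382 CPM in WAS replicates 1, 2 and 3 and 79.1 to 114 CPM in the controls, whereas that of 9 striatal markers was 183, 2130 and 414 CPM against 1064 to 1457 CPM. In WAS replicates 1 and 3, 7 of the 8 thalamic markers, 4 of 5 hippocampal markers and 6 of 8 markers of midbrain and hindbrain monoamine neurons were above all other libraries, and 8 of the 9 striatal markers were below them. Choroid plexus markers summed to 41.9 CPM in WAS replicate 1 and 16.2 CPM in control replicate 2 and to at least 917 CPM elsewhere. Markers of neurons summed to 4532 to 4993 CPM in the libraries labelled WAS and 5161 to 5700 CPM in those labelled control, and those of oligodendrocytes to 5185 to 7188 CPM over both groups, and of the 14 marker lists no gene was at 0 in all 6 libraries. The 4 cerebellar markers summed to 33.8 to 41.0 CPM, nearly all of it Pcp2 (18.4 to 25.3 CPM) and Car8 (13.6 to 17.0 CPM), while Gabra6, a defining marker of cerebellar granule cells, had a single count over all libraries. Of the dopamine receptor genes in the striatal list, Drd1 was at 34.8 to 365 CPM and Drd2 had a single count. Drd2 was the only 1 of the 9 striatal markers under 1 CPM in every library. A single count for Drd2 or Gabra6 is therefore not read as absence of a cell type.

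The promoters of Dgkg, Dgkz and Dgkb are shown because these were the most abundant members and the ones whose levels separated WAS replicates 1 and 3 from the other libraries. Each runs from 250 bases before to 50 bases after a RefSeq transcript start on GRCm38.p6, and the capitals mark CG dinucleotides.
Dgkg, chr16:22657182-22657481, minus strand: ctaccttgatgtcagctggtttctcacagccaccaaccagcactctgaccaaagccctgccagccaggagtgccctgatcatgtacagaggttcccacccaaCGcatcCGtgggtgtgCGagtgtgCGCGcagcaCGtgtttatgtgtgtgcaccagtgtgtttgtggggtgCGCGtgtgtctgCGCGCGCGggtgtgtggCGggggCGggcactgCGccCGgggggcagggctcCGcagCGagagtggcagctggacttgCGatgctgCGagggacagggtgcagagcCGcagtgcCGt
Dgkz, chr2:91963514-91963813, minus strand: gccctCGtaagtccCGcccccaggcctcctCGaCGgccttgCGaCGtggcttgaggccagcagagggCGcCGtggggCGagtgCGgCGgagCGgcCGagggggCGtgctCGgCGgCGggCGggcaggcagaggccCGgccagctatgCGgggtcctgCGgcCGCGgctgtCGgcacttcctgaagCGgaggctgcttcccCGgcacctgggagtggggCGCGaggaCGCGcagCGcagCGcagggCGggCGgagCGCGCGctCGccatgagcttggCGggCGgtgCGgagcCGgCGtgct
Dgkb, chr12:37879924-37880223, plus strand: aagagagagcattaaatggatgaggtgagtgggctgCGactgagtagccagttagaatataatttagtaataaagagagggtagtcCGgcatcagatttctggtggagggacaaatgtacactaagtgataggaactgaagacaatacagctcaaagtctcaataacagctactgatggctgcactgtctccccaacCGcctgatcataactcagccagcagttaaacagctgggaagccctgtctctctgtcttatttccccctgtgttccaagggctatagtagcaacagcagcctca
The Dgkz window held 43 CG dinucleotides and the Dgkg window 22, compared with 3 in the Dgkb window and a median of 7 over all 32851 promoters listed. A second Dgkz start listed in RefSeq, at chr2:91950299-91950598, had 10 CG dinucleotides. Among the 15 windows listed for the 9 genes, 0 held the cyclic AMP response element TGACGTCA on either strand, which 1.79% of all promoters held, and 0 held the AP-1 motif TGANTCA (7.81% of all promoters). A full palindromic glucocorticoid response element was in 0 of the 15 and in 0.00913% of all promoters. The shorter TGACG, which is contained in TGACGTCA, was in 4 of the 15, from Dgka, Dgke and Dgkh, and in 20.8% of all promoters. The Dgka windows among these, at chr10:128743829-128744128 and chr10:128744027-128744326, overlap and hold the same site, so it is counted more than once.

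Dgkz was the most abundant DGK transcript at 245 ± 39.4 CPM (SD over 6 libraries), followed by Dgkg at 159.9 ± 60.0 CPM, Dgkb at 114 ± 23.8 CPM, Dgkd at 55.6 ± 5.53 CPM, Dgkq at 41.2 ± 5.90 CPM, Dgke at 37.7 ± 2.67 CPM, Dgka at 16.6 ± 3.81 CPM, Dgkh at 10.5 ± 1.73 CPM and Dgki at 7.52 ± 2.54 CPM. The ranges over the 6 libraries did not overlap between Dgkb and Dgkd, between Dgke and Dgka or between Dgka and Dgkh. The other neighbours in this order overlapped. Dgkz exceeded Dgkg in 4 of the 6 libraries, and Dgkg exceeded Dgkb in 4 of 6. A read of the transcript end does not scale with transcript length, so this order is of counts per transcript end. Divided by the length of the longest coding transcript in GENCODE M21, the first 5 genes kept their order, from 58.8 CPM per kb for Dgkz to 8.35 CPM per kb for Dgkq, and Dgka passed Dgke (5.85 against 4.51 CPM per kb) and Dgki passed Dgkh (1.64 against 0.691 CPM per kb).

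**Figure D1:**
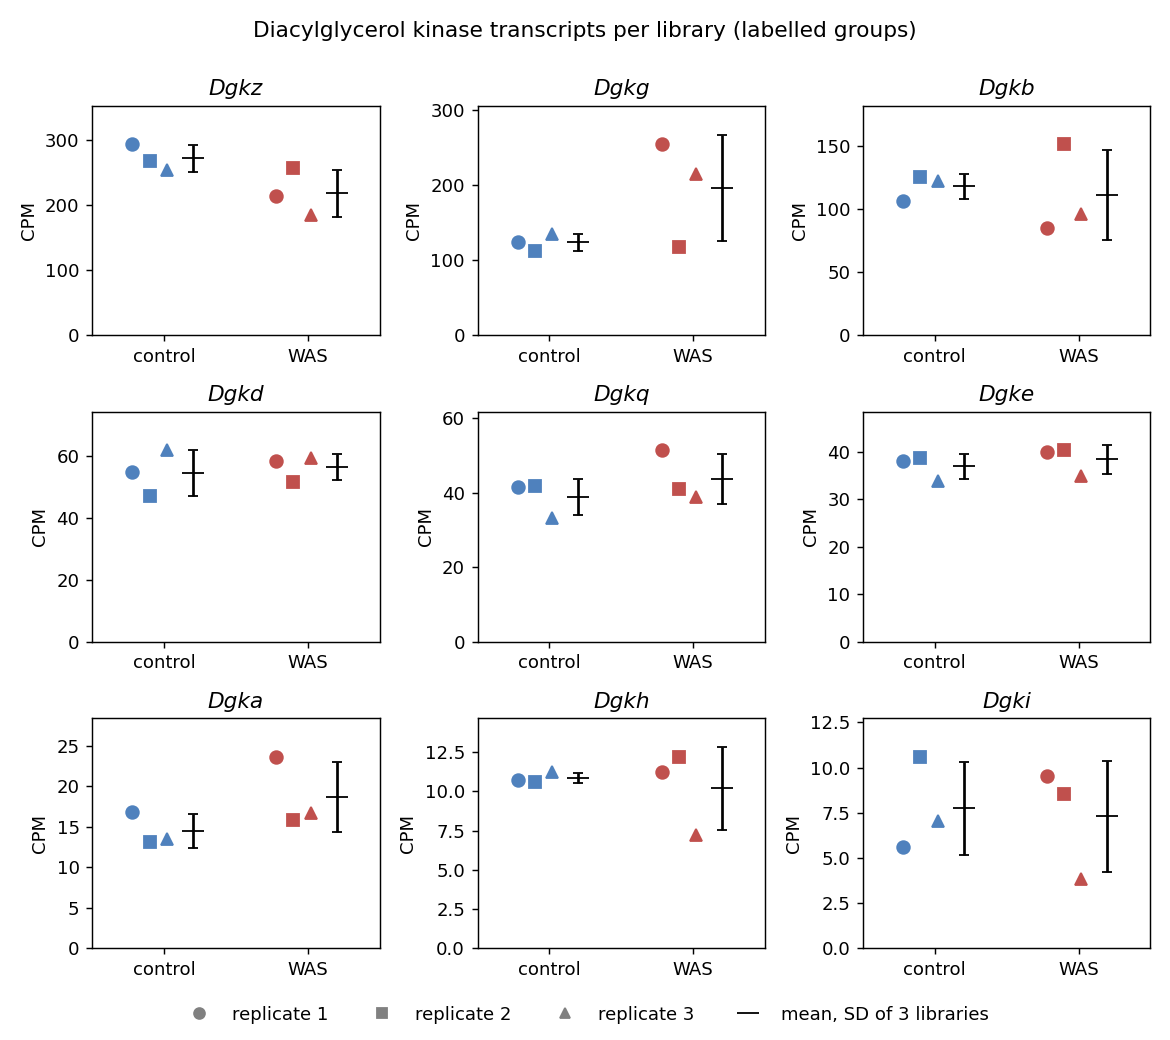
Level of each diacylglycerol kinase in CPM (vertical axes from 0) in the 3 control and 3 WAS libraries, with the symbol marking the replicate and the bar the mean ± SD of 3 libraries. Dgkg in WAS replicates 1 and 3 (255 and 215 CPM) lies above the other 4 libraries (113 to 134 CPM), and Dgkb and Dgkz are lowest in the same pair of libraries.

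Type I DGKs carry EF hands that bind calcium, and their 3 genes are Dgka, Dgkb and Dgkg. Dgkg lies at chr16:22468461-22657221 (GRCm38, minus strand), and its longest coding transcript has 25 exons. It was measured at 255, 118 and 215 CPM in WAS replicates 1, 2 and 3 and at 124, 113 and 134 CPM in control replicates 1, 2 and 3. WAS replicates 1 and 3 were thus above every control library, while WAS replicate 2 lay inside the control range and the groups overlapped. The fitted log2 fold change was 0.63 with a standard error of 0.21, or 1.54-fold for the libraries labelled WAS relative to control. The spread of Dgkg within a group was 36.0% of the mean for WAS and 8.80% for control, both larger than the 2.50% that counting alone gives. Relative to the control mean, Dgkg stood at 1.04 on the log2 scale in WAS replicate 1, -0.07 in WAS replicate 2 and 0.80 in WAS replicate 3. The fold change for WAS replicate 2 alone against the 3 controls, computed because of these values, was -0.11 on the log2 scale. It was 0.39 without WAS replicate 1, 0.55 without WAS replicate 3 and 0.89 without WAS replicate 2.
The thalamic marker Tcf7l2, a transcription factor, was at 234, 42.0 and 173 CPM in WAS replicates 1, 2 and 3 against 20.6 to 38.4 CPM in the controls, and Slc17a6, the vesicular glutamate transporter of subcortical neurons, was at 170, 30.7 and 134 CPM against 27.4 to 38.3 CPM. The libraries with the most thalamic marker RNA, WAS replicates 1 and 3, were therefore those with the most Dgkg. The same libraries also had the highest sums of hippocampal and of monoamine neuron markers. Among the remaining libraries, the order of Dgkg did not follow that of the thalamic sum. In bulk tissue, more cells of a kind and more RNA per cell cannot be told apart, and the part of regional content in the Dgkg difference was not tested.

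Dgkb, at chr12:37817726-38634239 (plus strand), encodes a membrane-associated DGK known for its abundance in medium spiny neurons of the striatum. Its level was 85.1, 151 and 95.8 CPM in WAS replicates 1, 2 and 3 and 106, 125 and 122 CPM in the controls. WAS replicate 2 was the highest of the 6 libraries and WAS replicates 1 and 3 were the lowest, so the groups overlapped with the controls in between. The log2 fold change over all libraries was -0.13 with a standard error of 0.18, and this average hides opposite deviations of -0.47, 0.36 and -0.30 from the control mean in WAS replicates 1, 2 and 3. Without WAS replicate 2 the log2 fold change was -0.42, and with WAS replicate 2 alone against the controls it was 0.32. The within-group spread was 32.2% of the mean for WAS and 8.57% for control. Striatal marker RNA had its lowest sums in the same WAS replicates 1 and 3 and its highest in WAS replicate 2. The striatal marker Ppp1r1b, which encodes DARPP-32, was at 40.1, 602 and 116 CPM against 275 to 413 CPM in the controls. How far striatal content accounts for the Dgkb values was not tested.

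**Figure D2:**
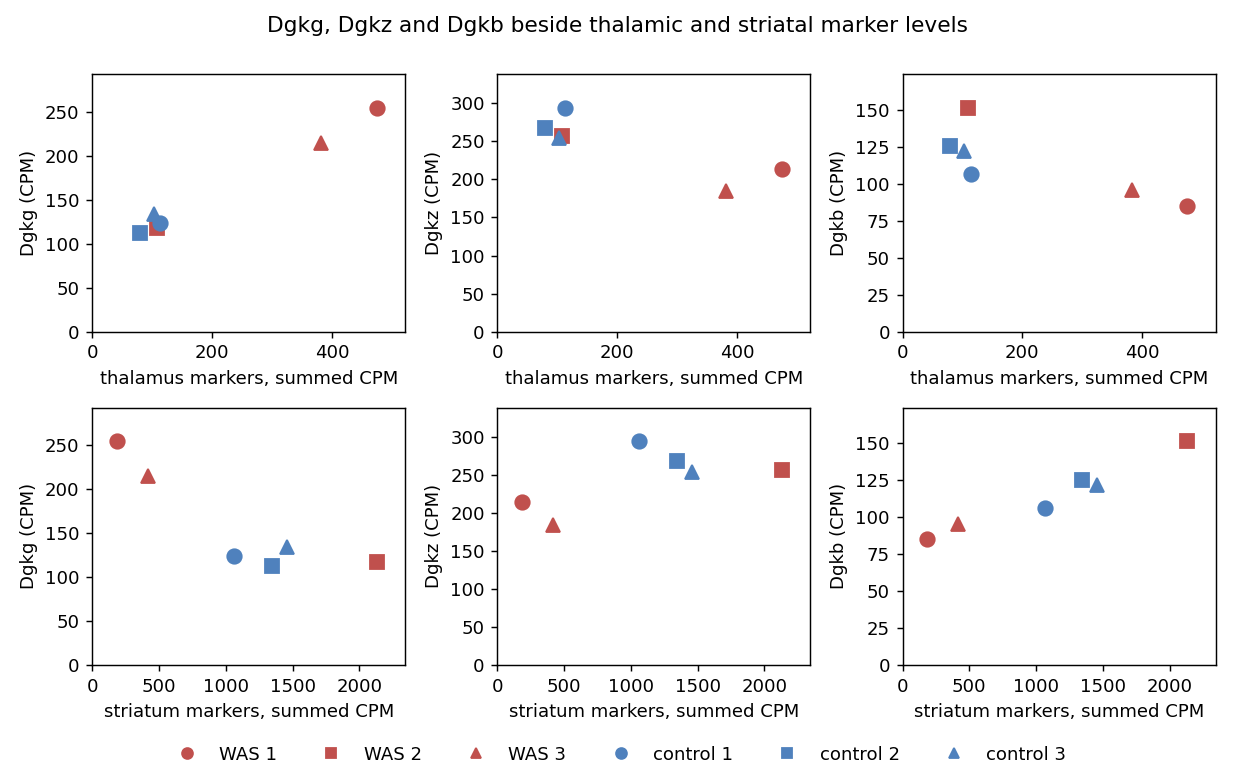
Levels of Dgkg, Dgkz and Dgkb (CPM, vertical axes) in each of the 6 libraries against the summed CPM of 8 thalamic markers (upper row) and 9 striatal markers (lower row). WAS replicates 1 and 3, with 475 and 382 CPM of thalamic markers and 183 and 414 CPM of striatal markers, have the highest Dgkg and the lowest Dgkb and Dgkz, while WAS replicate 2 lies with the controls for Dgkg and Dgkz.

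Dgka encodes the type I enzyme best known from T lymphocytes, and it was measured at 23.6, 15.8 and 16.6 CPM in WAS replicates 1, 2 and 3 against 16.9, 13.1 and 13.4 CPM in the controls. WAS replicate 1 stood above the rest, and the other libraries of both groups overlapped. The log2 fold change of 0.33 (standard error 0.18) was 0.13 without WAS replicate 1. In the annotation, the last exon of Dgka (chr10:128720134-128720506) overlaps Pmel on the opposite strand. Pmel, a gene of pigment cells, held 219, 130 and 149 counts in the WAS libraries and 150, 123 and 118 in the controls, which was 84.7% to 92.0% of the Dgka count of the same library. Whether the counting used the strand is not stated, so the reads of Dgka and Pmel cannot be told apart and the values of Dgka are uncertain.

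Type II DGKs contain a pleckstrin homology domain, and Dgkd and Dgkh were measured here. Dgkd, at chr1:87853287-87945180, varied little, with 58.6, 51.7 and 59.4 CPM in the WAS libraries and 54.9, 47.0 and 61.9 CPM in the controls. Its log2 fold change was 0.01 with a standard error of 0.12, and it was negative in 3 of the 6 fits that left out 1 library. Dgkh (chr14:78558750-78732776) had 11.2, 12.2 and 7.21 CPM in WAS replicates 1, 2 and 3 and 10.8, 10.6 and 11.2 CPM in the controls. The single low value was WAS replicate 3, and without that library the log2 fold change of Dgkh went from -0.13 (standard error 0.21) to 0.07. The spread of the Dgkh controls, 3.00%, was below the 9.74% expected from counting alone.
Dgke is the only type III member and prefers diacylglycerol carrying arachidonic acid, as arises from phosphoinositides. It was the steadiest of the 9 genes, at 40.0, 40.3 and 34.9 CPM in the WAS libraries and 38.2, 38.7 and 34.0 CPM in the controls, with the highest library 1.19 times the lowest. The log2 fold change was 0.02 with a standard error of 0.11.

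Type IV DGKs carry ankyrin repeats and bind postsynaptic scaffold proteins. Dgkz (chr2:91932824-91975864, minus strand, 32 exons) was measured at 214, 257 and 185 CPM in WAS replicates 1, 2 and 3 and at 294, 268 and 254 CPM in the controls. WAS replicate 2 exceeded only control replicate 3, by a small margin, and the other WAS libraries were below all controls. The fitted log2 fold change was -0.35 with a standard error of 0.12, or 0.783-fold. It kept its sign with each library left out, between -0.49 without WAS replicate 2 and -0.25 without WAS replicate 3, and it was -0.12 with WAS replicate 2 alone against the controls. Summed markers of cortical projection neurons were at 728 to 781 CPM in the libraries labelled WAS and 832 to 947 CPM in the controls. Those of neurons in general were also lower in each library labelled WAS. The single genes differed. In WAS replicates 1 and 3, 3 of 7 cortical and 2 of 5 neuronal markers were below all other libraries. Nefl of the neuronal list was above them. Fezf2 and Neurod6 of the cortical list and Tubb3 of the neuronal list were highest in WAS replicate 1. The part of these neurons in the Dgkz difference was not tested. The last 500 bases of the Dgkz transcript had the highest GC content of the 9 genes, 57.8%, and those of Dgkb the lowest, 31.6%.
Dgki (chr6:36846022-37300184) was the least abundant member, with 96, 79 and 38 counts in the WAS libraries and 59, 110 and 70 counts in the controls, or 3.81 to 10.6 CPM. Its libraries spread over a factor of 2.78, the widest of the 9 genes, with a spread of 42.0% of the mean for WAS and 33.2% for control. The log2 fold change of -0.13 had a standard error of 0.34 and turned positive without WAS replicate 3 (0.19) and without control replicate 2 (0.17).
Dgkq, the type V enzyme with a Ras-associating domain, was at 51.4, 40.9 and 38.8 CPM in the WAS libraries against 41.4, 41.9 and 33.2 CPM in the controls. WAS replicate 1 was the highest library, and the log2 fold change of 0.13 (standard error 0.13) was -0.0031 without it. The last exon of Dgkq (chr5:108646693-108648811) overlaps Tmem175 on the opposite strand, and the counts of Tmem175 were 132% to 140.5% of those of Dgkq in each library, so these counts too cannot be told apart by strand. No stretch of 50 bases in the last 500 bases of any of the 9 transcripts occurred in a transcript of another gene.

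Of the 9 genes, all of which passed the filter on low counts, only Dgkg met a fold change of at least 1.5 with an unadjusted p under 0.05. Over all 15239 genes tested, 2.49% met these criteria, 1.82% with higher and 0.676% with lower values in the libraries labelled WAS. Groups that did not overlap were seen for 0 of the 9 genes and for 12.2% of all genes (8.41% higher and 3.77% lower). The genes had been chosen on this contrast, so these counts describe the choice and nothing is read from them. Log2 fold changes were above 0 for 5 members and below 0 for 4, with a median of 0.01 beside a median of 0.0008 over all genes. The place of Dgkg past the thresholds also varied with the fit. It met them in none of the fits with DESeq2, with limma on quantile-normalized values or with the replicate number as a block, and lost them when either of WAS replicates 1 and 3, or control replicate 2, was left out. Its log2 fold change was 0.62 with DESeq2, 0.58 with limma and 0.56 with the block, where a fold of 1.5 is 0.585.

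**Figure D3:**
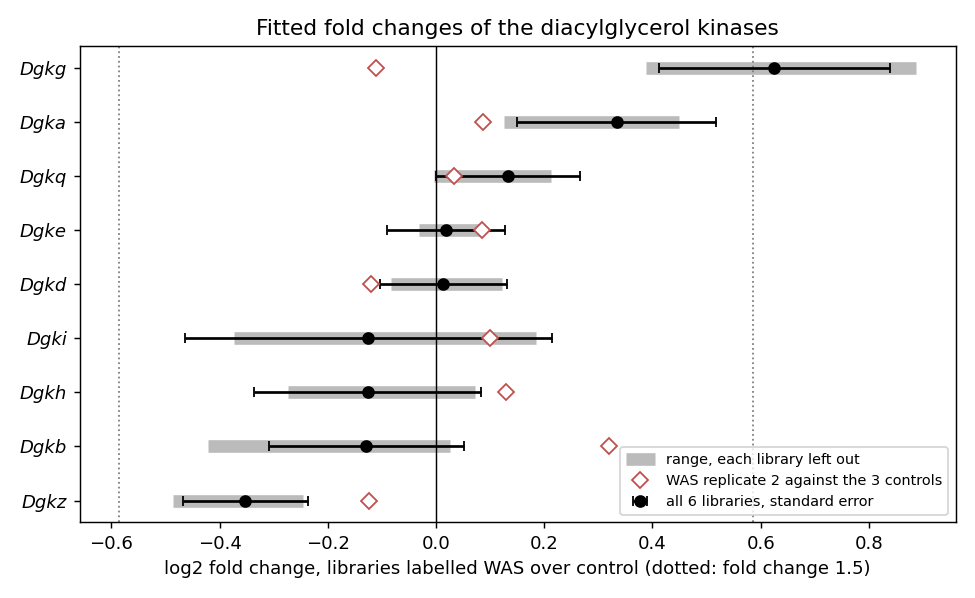
Log2 fold change of each diacylglycerol kinase for the libraries labelled WAS over control (horizontal axis), with the estimate from all 6 libraries and its standard error in black, the range with each library left out in grey, and WAS replicate 2 alone against the 3 controls as open diamonds. Dgkg (0.63) is the only member beyond a fold change of 1.5, marked by dotted lines, and its open diamond lies at -0.11.

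Summed over the 9 genes, DGK transcripts reached 699.9 ± 46.4 CPM in the libraries labelled WAS and 677 ± 13.4 CPM in the control libraries (SD, n = 3 each), a ratio of 1.03 that is smaller than the spread of the WAS libraries. The total was made up differently. Dgkg supplied 34.1% and 32.8% of the DGK counts in WAS replicates 1 and 3, compared with 16.9% in WAS replicate 2 and 16.9% to 20.04% in the controls. The exact 95% binomial intervals, which cover counting error only, were 33.0% to 35.1% for WAS replicate 1 and 19.1% to 21.0% for control replicate 3, the highest control. Dgkz supplied 28.6%, 36.9% and 28.1% in WAS replicates 1, 2 and 3 and 37.8% to 42.5% in the controls. Dgkb supplied 11.4%, 21.8% and 14.6% against 15.4% to 18.8%. These 3 genes together made up 74.0% to 76.0% of the DGK counts in each library. Counts of Dgkg exceeded those of Dgkz 1.19-fold and 1.17-fold in WAS replicates 1 and 3, and were 0.421 to 0.530 times those of Dgkz in the other 4 libraries. The ratio of Dgkg to Dgkb was 2.99 and 2.25 in WAS replicates 1 and 3, 0.778 in WAS replicate 2 and between 0.899 and 1.17 in the controls. Over all genes tested, 14.3% had WAS replicates 1 and 3 above the other 4 libraries, as Dgkg did, and 9.62% had them below, as Dgkb and Dgkz did.

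**Figure D4:**
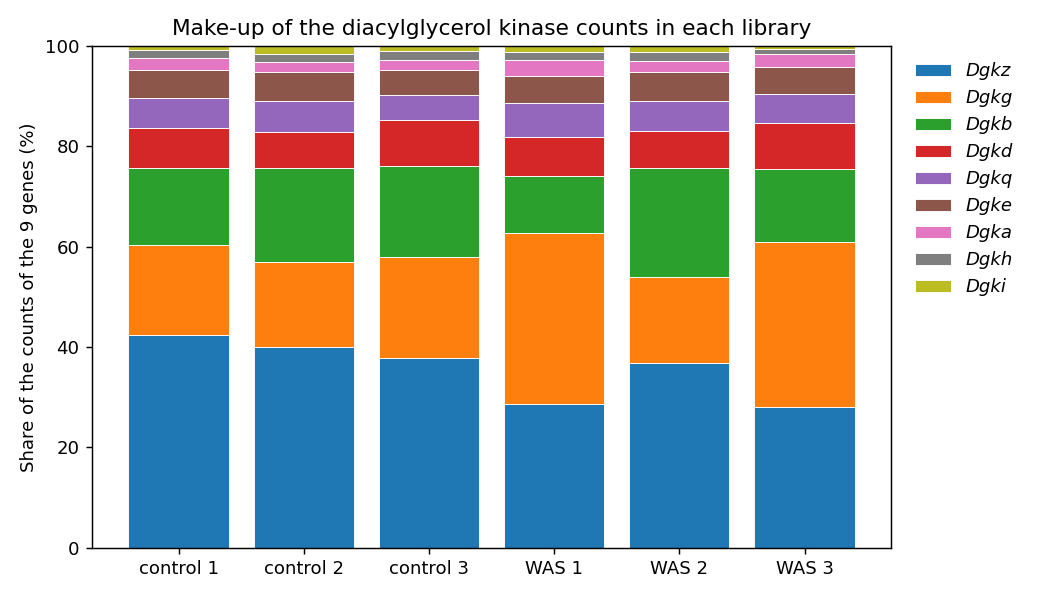
Share of the summed counts of the 9 diacylglycerol kinases (vertical axis, percent) taken by each gene in the 3 control and 3 WAS libraries. Dgkg takes 34.1% and 32.8% in WAS replicates 1 and 3 and at most 20.04% in the other libraries.

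The genes whose centred log2 CPM profile over the 6 libraries was most like that of Dgkg, among 9409 genes with a mean of at least 100 counts, were Pygm, Nefh and Syt2. Their root-mean-square differences from Dgkg were 0.0751, 0.0837 and 0.0972 on the log2 scale. Pygm, the muscle-type glycogen phosphorylase, was at 53.8, 29.1 and 46.8 CPM in WAS replicates 1, 2 and 3 and 26.7 to 31.4 CPM in the controls. Nefh, the heavy neurofilament subunit of large myelinated axons, was at 189, 83.3 and 177 CPM against 92.5 to 103 CPM. Syt2, a synaptic vesicle calcium sensor of fast-releasing synapses, was at 47.6, 21.1 and 34.9 CPM against 19.9 to 20.6 CPM. Closest to Dgkz were Cacna1i, Gp1bb and Slc37a4, with differences of 0.0347, 0.0354 and 0.0354. Within the family, Dgke and Dgkq were the most alike pair, at 0.124, and Dgkg and Dgki the least, at 0.765. Dgkb and Dgkg differed by 0.703.

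Dgkk, a further type II gene on the X chromosome that was not among the 9, held 69, 44 and 113 counts in WAS replicates 1, 2 and 3 and 11, 7 and 68 counts in the controls. Control replicate 3 stood beside WAS replicate 1 and above WAS replicate 2, so the groups overlapped. Dgkk had a log2 fold change of 1.39 and a standard error of 0.65 (edgeR, adjusted p = 0.695).

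The enzymes and effectors on either side of diacylglycerol were read from 7 lists of 82 genes, of which 80 were tested. An unadjusted p under 0.05 was found for 10 of them, or 12.5%, beside 7.24% of all genes tested. Of these, 4 had higher values in the libraries labelled WAS (3.83% of all genes) and 6 had lower values (3.41% of all genes). With edgeR, 0 genes passed an adjusted p of 0.05, in these lists or among all genes tested, where 1103 had an unadjusted p under 0.05 and where DESeq2 passed 22 and limma 0. A fold change of at least 1.5 with p under 0.05 was met by Plce1, Prkcd and Prkd2, each higher in the libraries labelled WAS, as for 1.82% of all genes. The median log2 fold change of the 80 genes was 0.0066, 40 of them being above 0.
Among the 12 phospholipases C, which form diacylglycerol, 8 had values above 0 and the most abundant was Plcb1. Plcb1, the phospholipase C coupled to Gq receptors in cortex and hippocampus, was at 303, 434 and 284 CPM in WAS replicates 1, 2 and 3 and 423, 463 and 406 CPM in the controls. WAS replicate 2 lay inside the control range, and the log2 fold change was -0.38 (standard error 0.14, unadjusted p = 0.0222 and adjusted p = 0.625 by edgeR). Plcb4, next in abundance, had 0.06 (standard error 0.15). Plce1, a Ras-regulated phospholipase C, was at 17.7, 15.1 and 23.8 CPM against 10.6, 10.3 and 14.4 CPM, so that all WAS libraries exceeded the controls. Plce1 had a log2 fold change of 0.65 and a standard error of 0.20 (edgeR, adjusted p = 0.562), and did not meet the criteria once WAS replicate 3 or either of control replicates 1 and 2 was left out.
All 8 phosphatidate phosphatases, which make diacylglycerol from phosphatidic acid and so catalyse the reverse of the DGK step, had log2 fold changes above 0. Over all genes tested, 50.2% were above 0. Of the 8 phosphatases, 0 had an unadjusted p under 0.05. The most abundant were Ppap2b (lipid phosphate phosphatase 3) with 0.08 (standard error 0.08) and Lpin2 with 0.02 (standard error 0.12). The other enzymes that form diacylglycerol included Sgms1 at -0.05 (standard error 0.12) and Pnpla2 at 0.29 (standard error 0.16), and 0 of the 3 tested had an unadjusted p under 0.05.

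Of the 10 other genes around diacylglycerol use, 3 had values above 0. Mgll encodes monoacylglycerol lipase, which degrades the endocannabinoid made from diacylglycerol, and was at 251, 277 and 209 CPM in the WAS libraries against 324, 321 and 305 CPM in the controls. The groups did not overlap, and the log2 fold change of Mgll was -0.40 with a standard error of 0.10 (unadjusted p = 0.00229, adjusted p = 0.498 by edgeR). Abhd6, a further monoacylglycerol hydrolase, had -0.10 (standard error 0.09).
Effectors that bind diacylglycerol numbered 22, of which 3 had an unadjusted p under 0.05 with higher and 2 with lower values. Prkcb, the most abundant gene of the pathway, was at 2165, 2997 and 1939 CPM against 2906, 3136 and 2513 CPM (log2 fold change -0.31, standard error 0.14, unadjusted p = 0.0553 by edgeR). Chn1, which encodes a chimaerin that inactivates Rac, had -0.27 (standard error 0.12, unadjusted p = 0.0504 by edgeR), so neither of these abundant genes passed. The pair with lower values, named after their values were seen, were Prkca and Unc13a. Prkca, a conventional protein kinase C, was at 172, 192 and 177 CPM against 199.8, 196 and 209 CPM, groups that did not overlap (-0.20, standard error 0.08, unadjusted p = 0.0344 and adjusted p = 0.657 by edgeR). Unc13a, the main Munc13 priming factor of excitatory synapses, was at 114, 134 and 98.3 CPM against 151, 143 and 121 CPM, with overlapping groups (-0.30, standard error 0.12, unadjusted p = 0.0298 and adjusted p = 0.638 by edgeR). Prkcd, a protein kinase C gene that also stands in the thalamic marker list, was at 12.7, 9.41 and 22.5 CPM against 6.19, 3.95 and 10.3 CPM. The groups overlapped for Prkcd, whose log2 fold change was 1.09 (standard error 0.36 and, by edgeR, adjusted p = 0.583). Prkd2, a protein kinase D, was at 5.36, 6.60 and 6.51 CPM against 4.00, 3.95 and 3.81 CPM (0.61, standard error 0.23, adjusted p = 0.625 by edgeR). With limma, neither gene met the criteria. Nor did Prkcd on omission of WAS replicate 3 or control replicate 2, or Prkd2 on omission of any library but WAS replicate 1 and control replicate 2. Unc13c, a Munc13 gene of opposite sign to Unc13a and likewise named after its values were seen, was higher in each WAS library, replicate 2 included, at 85.8, 102 and 103 CPM against 64.7, 61.7 and 69.3 CPM. The log2 fold change of Unc13c was 0.53 with a standard error of 0.10 (unadjusted p = 0.000232, adjusted p = 0.477 by edgeR).
On the phosphatidic acid side, 2 of 16 genes of phosphatidylinositol resynthesis had an unadjusted p under 0.05, both lower. Pip5k1c, a phosphatidylinositol phosphate kinase of nerve terminals named after its values were seen, was at 137, 144 and 118 CPM against 170.4, 170.03 and 172 CPM. For Pip5k1c the log2 fold change was -0.40 and the standard error 0.09 (edgeR, unadjusted p = 0.00114 and adjusted p = 0.477). Pitpnm2, a phosphatidylinositol transfer protein gene also named after its values were seen, was at 155, 162 and 147 CPM against 188, 174 and 195 CPM, with no overlap (-0.30, standard error 0.08, unadjusted p = 0.00428 and adjusted p = 0.515 by edgeR). The most abundant genes of this list, Pip5k1a and Pitpna, had -0.05 and -0.03 (standard errors 0.08 and 0.08). Of the 9 other sources of phosphatidic acid, 0 had an unadjusted p under 0.05, with Agpat1 at -0.04 and Agpat4 at 0.10 (standard errors 0.09 and 0.11).

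**Figure D5:**
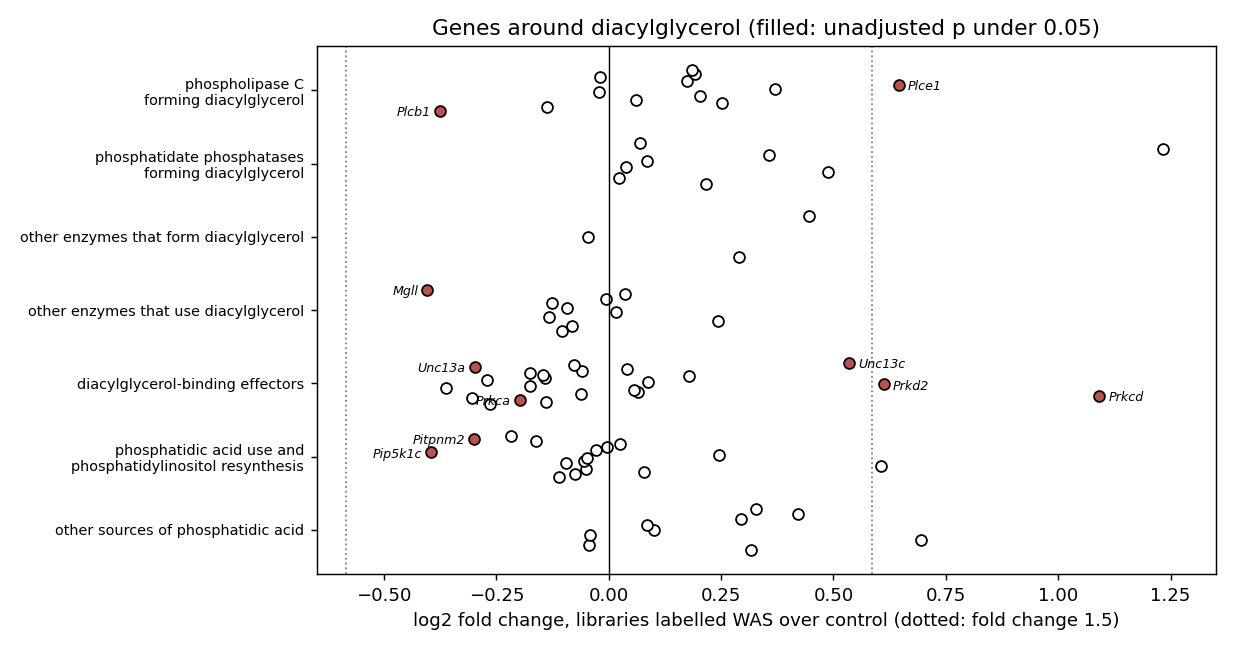
Log2 fold change (horizontal axis) of the 80 tested genes around diacylglycerol in 7 lists, 1 point per gene, with filled points for an unadjusted p under 0.05 and dotted lines at a fold change of 1.5. The 10 filled points lie on both sides of 0. The 8 phosphatidate phosphatases, none of them filled, all lie to the right of it, as 50.2% of all genes tested would.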

How the data were processed

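The authors made the deposited read counts from single-end reads of 75 bp, prepared from 500 ng of total RNA per mouse with a Lexogen QuantSeq kit, aligning them with Bowtie2 and counting reads with Bedtools, those with several alignments included. The submitters' processing notes name mm10, and neither the annotation nor the use of strand is given in the sources used here. After TMM scaling, edgeR 4.0.16 (quasi-likelihood test, R 4.3.3) was run on the 15239 genes with a mean log2(quantile-normalized count + 1) of at least 2, with Benjamini-Hochberg adjustment over these genes. Standard errors were obtained from the fold change and its F statistic. The script was tested on simulated counts. Levels are CPM of the library total (TMM factors 0.976 to 1.01). Library totals were 9248520 to 10502029 counts, and the reads carry no molecular identifiers. Replicates are libraries labelled as biological replicates, and p-values set the difference between groups against the spread between replicates.

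The members and all lists of genes were chosen with earlier results of these data known. Named genes are the members, Dgkk, the 2 most abundant genes of each pathway list and those meeting a fold change of 1.5 with unadjusted p under 0.05, and the 3 genes nearest in profile to the most changed and the most abundant member. Prkca, Unc13a, Unc13c, Pip5k1c and Pitpnm2, which fall outside this rule, were added after their values were seen, since they complete the pathway genes with an unadjusted p under 0.05. The marker genes given singly (Tcf7l2, Slc17a6, Ppp1r1b, Drd1, Drd2, Gabra6, Pcp2, Car8, Nefl, Tubb3, Fezf2 and Neurod6) were also picked after their values were seen. Pmel and Tmem175 are named because they overlap members. Alternatives were total-count scaling, DESeq2 1.42.0, limma 3.58.1, 2 other filters, a replicate block and omission of single libraries. Gene coordinates and transcript ends are from GENCODE M21 (GRCm38, the assembly of mm10), and promoters from RefSeq.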

Additional observations from a re-analysis of the deposited data

How the results depend on the processing

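Dgkg was the 1 member that met a fold change of 1.5 with unadjusted p under 0.05, and the number was 0 with DESeq2, with limma and with the replicate block. The number ranged from 0 to 1 with each library left out (0 on omission of control replicate 2 or of either of WAS replicates 1 and 3). The cause was not tested. The log2 fold changes of Dgka, Dgkg and Dgkz kept their sign in the 12 alternatives (2 filters, 2 other tools, total-count scaling, the block and each library left out), between 0.13 and 0.45, 0.39 and 0.89, and -0.49 and -0.25 with each library left out. Those of the other 6 changed sign without at least 1 library. Left-out ranges were -0.42 to 0.03 for Dgkb, -0.08 to 0.12 for Dgkd, -0.03 to 0.08 for Dgke, -0.27 to 0.07 for Dgkh, -0.37 to 0.19 for Dgki and -0.0031 to 0.21 for Dgkq. With WAS replicates 1 and 3 left out, a setting added after seeing the data in which the lone WAS library is assumed to vary like the controls, the log2 fold changes were -0.11 for Dgkg, 0.32 for Dgkb and -0.12 for Dgkz, and 0 members met the criteria. In that setting 2 pathway genes had an unadjusted p under 0.05 with higher and 3 with lower values.

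The number of pathway genes with an unadjusted p under 0.05 was 4 higher and 6 lower, and the lower count was 3 with limma, 4 with total-count scaling and 9 with DESeq2, with no filter and with the block. It ranged from 1 to 6 higher and from 3 to 11 lower with each library left out. Pathway genes meeting both criteria numbered 3, 1 with limma, and 0 to 5 with each library left out. Over all genes this number was 380 and 265 to 825, the highest without WAS replicate 2. Genes with an adjusted p under 0.05 numbered 0, with 491 in the fit without WAS replicate 2 and 0 in the other 5 that left out a library, 49 with the block, 22 with DESeq2 and 0 with limma. Of all genes, 1103 had an unadjusted p under 0.05. Same-numbered WAS and control libraries had correlated deviations of 0.0884, 0.115 and 0.101, and each library correlated best with its own number, as a hint from the data. The numbers were not taken as pairs, and the block changed the count of genes meeting both criteria from 380 to 417. Divided by transcript length, 4 members changed rank by level. The 9 genes held 38 to 3088 counts per library. Counting alone gives a spread of 11.5% for Dgki and 9.74% for Dgkh, below their spread between WAS libraries (42.0% and 25.9%).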
